A study of Mus musculus with 6 samples.

Results

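The genes for the proteins of the cytosolic ribosome were followed in brain microglia of Il3-/-5xFAD and 5xFAD mice, with the large (60S) and the small (40S) subunit kept apart. Members were chosen by symbol, as genes named Rpl or Rps with a number, plus Rplp0, Rplp1, Rplp2 and Rpsa, and without Rpl26 and the S6 kinases. The rule found 82 of the 20129 genes in the table, 49 of the large and 33 of the small subunit. A level of at least 1 CPM (counts per 1000000 reads in the library) in at least 3 of the 6 libraries was required for a test, and 81 members passed (48 large and 33 small), among 11900 tested genes in all. The remaining member, Rpl3l, a paralog of Rpl3 known from heart and skeletal muscle, was listed at 0.103 CPM in 5xFAD replicate 5 and at 0 in the other libraries.

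Each ribosomal subunit is built on ribosomal RNA and carries its own set of proteins, nearly all present in a single copy. The small subunit holds the mRNA and reads its codons, and the large subunit joins the amino acids, feeds the new chain through an exit tunnel and recruits the elongation factors with a flexible stalk. The mRNAs of these proteins are short and abundant. They begin with a terminal oligopyrimidine (TOP) tract, a run of C and U at the cap through which mTORC1 and its target Larp1 control their translation.

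Live CD45+ CD11b+ cells were sorted as microglia, the macrophages of the brain, from C57BL6/J mice at 5 months of age. The knockout mice (Il3-/-5xFAD, replicates 1, 2 and 3) lacked both alleles of Il3, which encodes the cytokine interleukin-3, and carried the 5xFAD transgenes, and the control mice (5xFAD, replicates 4, 5 and 6) carried the transgenes with Il3 intact. The 5xFAD transgenes encode mutant human amyloid precursor protein and presenilin under the neuronal Thy1 promoter, so all 6 libraries come from a brain with amyloid and none from a wild-type mouse. Each library held cells pooled from 4 mice, 2 male and 2 female, and the p-values measure the spread between 3 such pools per genotype.

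The libraries held 28160523 to 32988688 reads in Il3-/-5xFAD and 27970850 to 37605490 reads in 5xFAD, so that 1 read was worth 0.0266 to 0.0358 CPM. Il3 itself had 0 reads in all 3 Il3-/-5xFAD libraries, against 54, 61 and 29 reads in 5xFAD. The summed level of 10 microglial markers was 36239 to 39539 CPM in Il3-/-5xFAD and 35053 to 36744 CPM in 5xFAD, with none called. Members took 511426 to 791633 reads of an Il3-/-5xFAD library and 732703 to 1080527 reads of a 5xFAD library, so that counting error is small for all but the lowest of them.

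Ribosomal protein mRNAs took a smaller share of the library in every Il3-/-5xFAD pool than in any 5xFAD pool. The share was 1.72%, 2.15% and 2.40% in Il3-/-5xFAD replicates 1, 2 and 3, against 2.62%, 2.79% and 2.87% in 5xFAD replicates 4, 5 and 6. The groups did not overlap, the spread within Il3-/-5xFAD was the wider, and its replicate 1 lay lowest. The mean share was 2.09% ± 0.345 in Il3-/-5xFAD and 2.76% ± 0.130 in 5xFAD (SD, n = 3 each). In such bulk samples, fewer cells of a type that is rich in these mRNAs and less of them per cell cannot be told apart.

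Both subunits showed this. The summed level of the large subunit genes was 9842, 12290 and 13760 CPM in Il3-/-5xFAD, against 14729, 15730 and 16251 CPM in 5xFAD, and its mean was 23.2% lower in Il3-/-5xFAD. Small subunit genes summed to 7331, 9224 and 10237 CPM in Il3-/-5xFAD, against 11466, 12187 and 12483 CPM in 5xFAD, and the mean was 25.9% lower. In both subunits all 3 Il3-/-5xFAD libraries lay below all 3 5xFAD libraries.

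All 81 tested members had a negative log2 difference (Il3-/-5xFAD minus 5xFAD, on log2(CPM + 1)), where 50.1% of all tested genes did. Few of these differences passed the test across all genes: limma called 3 members lower at an adjusted p under 0.05 (Benjamini-Hochberg over 11900 genes), beside 0.63% of all tested genes, and 0 members higher, beside 0.252%. Without adjustment, 76 of the 81 (44 large and 32 small) had a p under 0.05 and lay lower, where the share over all tested genes was 9.83%. In 72 members (41 large and 31 small) every Il3-/-5xFAD library was below every 5xFAD library, a pattern that 11.5% of all tested genes had, and 0 members had the opposite one, which 9.65% of all tested genes had. A limma adjusted p under 0.1 was reached by 18 large and 22 small subunit genes. The share of all tested genes at that threshold was not counted, so this count has no background beside it.

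**Figure D1:**
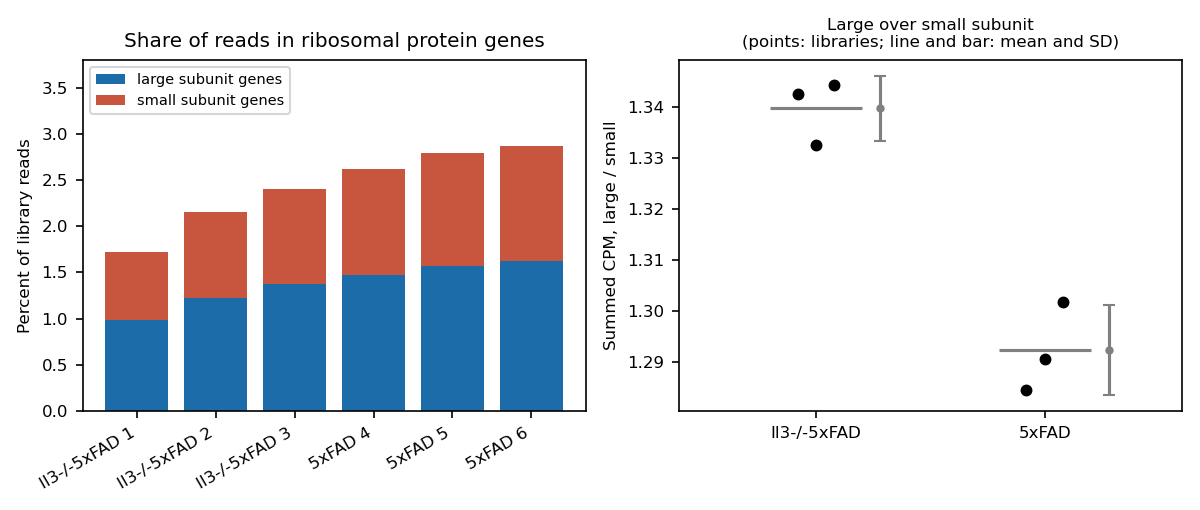
Left, percent of each library's reads (vertical axis) in ribosomal protein genes, stacked by subunit, for 3 Il3-/-5xFAD and 3 5xFAD libraries, with totals of 1.72% to 2.40% in Il3-/-5xFAD and 2.62% to 2.87% in 5xFAD. Right, the summed CPM of large subunit genes over that of small subunit genes on an axis that does not start at 0, with points for libraries, a line for the mean and a bar for the SD, where the 3 Il3-/-5xFAD points lie above the 3 5xFAD points.

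The proportion between the subunits differed little. Summed large over summed small subunit levels gave 1.34, 1.33 and 1.34 in Il3-/-5xFAD, against 1.28, 1.29 and 1.30 in 5xFAD. The groups did not overlap, and the small subunit was the lower of the pair in Il3-/-5xFAD relative to 5xFAD. The mean ratio was 1.340 ± 0.00634 in Il3-/-5xFAD and 1.292 ± 0.00878 in 5xFAD (SD, n = 3 each), 3.66% higher in Il3-/-5xFAD. The difference of 0.0474 became 0.0459 without the 5 paralog rows, and 0.0625 over the 41 members whose transcripts share the fewest 50-base stretches with other genes. By gene, the median log2 difference was -0.40 in the large subunit (quartiles -0.47 and -0.35) and -0.44 in the small subunit (quartiles -0.49 and -0.38), where the median over all tested genes was -0.000587. With each library's trend with transcript length removed, the order of the medians turned, to -0.23 in the large and -0.20 in the small subunit, whose members have the shorter transcripts (median 661 bases, against 761.5 in the large subunit). The large subunit had the wider range, -0.79 to -0.097, which narrowed to -0.61 to -0.14 without its paralog rows; the small subunit ran from -0.58 to -0.30 without them. No test was made of scores over members, since the members were chosen with results of these data known.

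The 3 members called lower were Rps25 and Rps27 in the small subunit and Rpl36 in the large subunit. Rps25 encodes a protein of the small subunit's head that is needed when some viral and cellular mRNAs recruit the ribosome through internal entry sites. Its level was 115, 142 and 145 CPM in Il3-/-5xFAD, against 183, 198 and 198 CPM in 5xFAD. The groups were separated by a gap wider than the spread within either of them. Rps25 fell by 0.53 on the log2 scale (SE 0.10, limma adjusted p = 0.0341), to a mean level 30.6% lower than in 5xFAD.

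Rps27 encodes a zinc-binding protein of the small subunit and is among the genes mutated in human Diamond-Blackfan anaemia. It was at 220, 267 and 307 CPM in Il3-/-5xFAD, against 361, 389 and 402 CPM in 5xFAD. Again no Il3-/-5xFAD library reached the lowest 5xFAD library. Rps27 fell by 0.55 (SE 0.11, limma adjusted p = 0.0457). Rpl36, a protein of the large subunit, was at 68.7, 92.2 and 100.1 CPM in Il3-/-5xFAD, against 123, 131 and 140 CPM in 5xFAD. Replicate 1 was the lowest Il3-/-5xFAD library, and the groups did not overlap. Rpl36 fell by 0.61 (SE 0.12, limma adjusted p = 0.0475).

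All 3 calls lay close to the threshold, with Rpl18, Rps19 and Rps21 just outside it at limma adjusted p = 0.0501 each, and with Rps14 and Rps15a at 0.0543 and 0.0547. All 3 were lost without 5xFAD replicate 5 or 6, Rps27 and Rpl36 also without Il3-/-5xFAD replicate 2 and Rps27 also without Il3-/-5xFAD replicate 1, while 65 members were called without Il3-/-5xFAD replicate 3, beside 3.12% of all tested genes in that fit. On the recovered reads, edgeR's quasi-likelihood test with TMM factors called 0 members lower (0.294% of all tested genes) and DESeq2 called 50 (3.45%). With other variance settings of limma the members called were 8 with robust estimation (0.697% of all tested genes), 68 with array weights (5.08%) and 0 without a trend (0.042%). Over all its annotated transcripts, Rps25 shares 11.96% of its 50-base stretches with other annotated genes, and Rps27 shares 25%. Rpl36 shares 81.1%, more than any other member, so the level of Rpl36 depends on how shared reads were assigned.

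**Figure D2:**
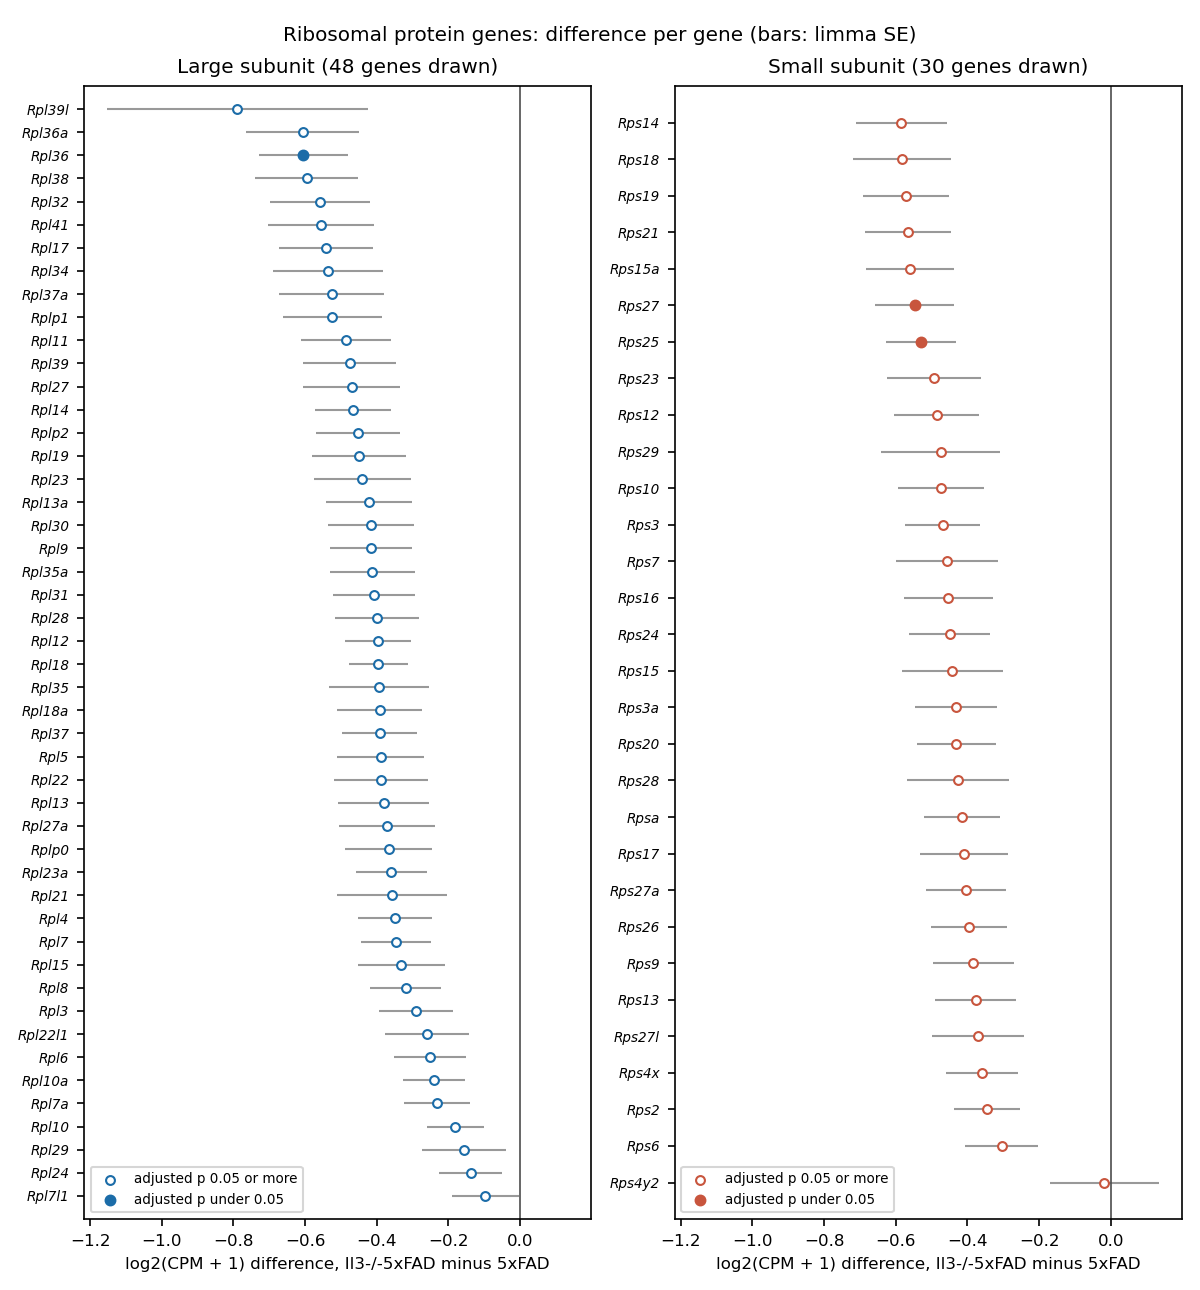
Log2(CPM + 1) difference, Il3-/-5xFAD minus 5xFAD (horizontal axis), for 48 large and 30 small subunit genes, a row each; bars are limma standard errors, and filled points are Rpl36, Rps27 and Rps25, at an adjusted p under 0.05. All points lie left of 0, between -0.79 (Rpl39l) and -0.018 (Rps4y2).

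Sequence around the annotated start sites was searched for pyrimidine runs. RefSeq windows of GRCm38.p6, 60 bases before and 20 after the annotated start, are printed 5′ to 3′ for 2 called genes, for Rps18, whose difference was among the largest, and for Rpl24 and Rpl7l1, which had the smallest of the large subunit. Capitals mark a run of at least 8 C or T on the gene's strand within 30 bases of the start. The windows lie at chr9:44407654-44407733 (plus strand, Rps25), chr3:90213629-90213708 (minus strand, Rps27), chr17:33955646-33955725 (minus strand, Rps18), chr16:55966215-55966294 (plus strand, Rpl24) and chr17:46782637-46782716 (minus strand, Rpl7l1).
Rps25: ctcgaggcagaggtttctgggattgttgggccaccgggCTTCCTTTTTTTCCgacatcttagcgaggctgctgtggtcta
Rps27: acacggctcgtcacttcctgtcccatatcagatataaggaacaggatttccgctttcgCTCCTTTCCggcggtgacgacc
Rps18: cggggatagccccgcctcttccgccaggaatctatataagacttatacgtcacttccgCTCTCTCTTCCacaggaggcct
Rpl24: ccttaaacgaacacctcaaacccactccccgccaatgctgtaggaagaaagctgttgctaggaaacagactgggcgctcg
Rpl7l1: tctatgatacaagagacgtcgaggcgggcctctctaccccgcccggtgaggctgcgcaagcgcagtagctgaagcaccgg

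The run was 14 bases long in Rps25, where it began 22 bases before the annotated start and ended before it, and 9 in Rps27 and 11 in Rps18, where it began 2 bases before the start, and no run of that length was found in the windows of Rpl24 or Rpl7l1, which says only that these letters are not there. Windows of 250 bases before to 50 after the start were found for 60 of the 81 tested members (71 windows; Rpl36 had none). A run of at least 8 C or T near the start was found in 50.7% of the members' windows, against 22.9% of all 32851 windows. By gene it was found in 22 of 36 large and 12 of 24 small subunit genes. The median log2 difference was -0.42 in the 34 members with the run and -0.42 in the 26 without it, and a difference between these members was not tested. Searched on both strands of the whole window, the ETS-family motif CCGGAAG was in 36.6% of the members' windows and in 8.86% of all windows. The YY1 motif AAGATGG was in 16.9% and 6.34%, the E-box CACGTG in 11.3% and 7.15%, and TATAAA in 9.86% and 13.6%.

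Among the large subunit genes that did not pass, the largest differences were those of Rpl39l, Rpl36a, Rpl38 and Rpl32. Rpl36a was at 54.8, 78.2 and 91.6 CPM in Il3-/-5xFAD, against 98.9, 116 and 123 CPM in 5xFAD, a difference of -0.61 ± 0.16 on the log2 scale (SE; limma adjusted p = 0.0829). Rpl38, a protein that in mice is needed for the translation of Hox mRNAs and the patterning of the skeleton, was at 46.0, 59.7 and 70.6 CPM in Il3-/-5xFAD, against 76.9, 96.6 and 91.5 CPM in 5xFAD (-0.60 ± 0.14, limma adjusted p = 0.0715). Rpl32 was at 187, 265 and 304 CPM in Il3-/-5xFAD, against 354, 380 and 359 CPM in 5xFAD (-0.56 ± 0.14, limma adjusted p = 0.0789). None of these 3 genes overlapped between the groups, and in each of them Il3-/-5xFAD replicate 1 lay lowest.

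In the small subunit the largest differences belonged to Rps14, Rps18, Rps19, Rps21 and Rps15a. Rps14, a protein of the platform whose loss of a copy is known in human 5q- syndrome, was at 416, 533 and 633 CPM in Il3-/-5xFAD, against 754, 786 and 800 CPM in 5xFAD (-0.58 ± 0.13, SE). Rps19, the gene most often mutated in Diamond-Blackfan anaemia, was at 110, 133 and 165 CPM in Il3-/-5xFAD, against 201, 202 and 197 CPM in 5xFAD (-0.57 ± 0.12). In both genes the 5xFAD libraries lay close together, the Il3-/-5xFAD libraries spread more widely, and the groups did not overlap. Rps18 (-0.58 ± 0.14), Rps21 (-0.57 ± 0.12) and Rps15a (-0.56 ± 0.12) followed, also without overlap.

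The smallest differences were those of Rpl24, Rpl29 and Rpl7l1 in the large subunit, and Rps4y2 and Rps6 had the smallest in the small subunit. Rpl24, which reaches across the subunit interface, was at 117, 126 and 131 CPM in Il3-/-5xFAD, against 124, 146 and 144 CPM in 5xFAD (-0.14 ± 0.09, limma adjusted p = 0.469). Here the groups overlapped, with 2 Il3-/-5xFAD libraries above the lowest 5xFAD library. Rpl24 shares 51.8% of its 50-base stretches with other genes, 43.8% with the annotated gene Gm28037. Rpl29 was at 77.3, 98.3 and 104.6 CPM in Il3-/-5xFAD, against 93.7, 114 and 103 CPM in 5xFAD (-0.16 ± 0.12), and overlapped as well. Rps6, whose protein is the substrate that gave the S6 kinases their name, was at 138, 169 and 183 CPM in Il3-/-5xFAD, against 195, 208 and 198 CPM in 5xFAD (-0.30 ± 0.10), without overlap.

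Each member was also expressed as a share of the reads of its own subunit. For 59 of the 81 members the groups overlapped in this share. It was above every 5xFAD library in all Il3-/-5xFAD libraries for 10 members, among them Rpl3 and Rpl7a in the large and Rps4x and Rps6 in the small subunit. It was below in 12 members, among them Rpl36, Rpl36a, Rpl38, Rpl41 and Rplp1 in the large and Rps14, Rps18, Rps25 and Rps27 in the small subunit. These counts have no background of shares beside them. In CPM, 9.65% of all tested genes lay above without overlap and 11.5% below. The shares of a subunit add up to the whole, so higher shares of some members go with lower shares of others. Rps14 made up 5.88% ± 0.269 of the small subunit's reads in Il3-/-5xFAD and 6.48% ± 0.0889 in 5xFAD (SD, n = 3 each), and Rps6 1.83% ± 0.0436 in Il3-/-5xFAD and 1.67% ± 0.0690 in 5xFAD.

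All 4 genes of the stalk that recruits elongation factors had negative differences and none was called, with a median log2 difference of -0.42. Rplp1 was at 553, 750 and 879 CPM in Il3-/-5xFAD, against 988, 1037 and 1061 CPM in 5xFAD (-0.52 ± 0.14, limma adjusted p = 0.0850). Rplp2, its partner in the stalk's dimers, was at 254, 295 and 370 CPM in Il3-/-5xFAD, against 397, 424 and 424 CPM in 5xFAD (-0.45 ± 0.12). Rplp0, which anchors the dimers, was at 479, 617 and 703 CPM in Il3-/-5xFAD, against 732, 795 and 766 CPM in 5xFAD (-0.37 ± 0.12), and Rpl12 at the stalk's base had a log2 difference of -0.40 ± 0.09. In each of the 4 every Il3-/-5xFAD library was below every 5xFAD library.

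Rpl5 and Rpl11, which with 5S ribosomal RNA bind Mdm2 when ribosome assembly stalls, and Rpl23, which also binds Mdm2, had log2 differences of -0.39 ± 0.12, -0.49 ± 0.13 and -0.44 ± 0.13, and none passed. Rpl11 was at 179, 217 and 272 CPM in Il3-/-5xFAD, against 287, 317 and 321 CPM in 5xFAD, without overlap. Of the proteins near the peptidyl transferase centre and the exit tunnel, Rpl39 had a log2 difference of -0.48 ± 0.13, Rpl4 of -0.35 ± 0.10 and Rpl3 of -0.29 ± 0.10, and none passed or overlapped. Rpl10, which joins the large subunit late in its assembly, had -0.18 ± 0.08 (limma adjusted p = 0.287), with 354, 399 and 374 CPM in Il3-/-5xFAD, against 403, 435 and 439 CPM in 5xFAD. Its groups only just stood apart.

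Of the proteins along the mRNA path of the small subunit, Rps3 at the entry was at 689, 874 and 889 CPM in Il3-/-5xFAD, against 1098, 1117 and 1156 CPM in 5xFAD (-0.47 ± 0.10, limma adjusted p = 0.0591). Rps2, beside it, had -0.34 ± 0.09, and Rps26 and Rps28 near the mRNA exit had -0.40 ± 0.11 and -0.43 ± 0.14. None of these 4 passed and none overlapped. Rpsa, a small subunit protein also known as a laminin receptor, had -0.41 ± 0.11, and Rps27a, made as a fusion with ubiquitin, -0.40 ± 0.11. A list of 17 genes mutated in human Diamond-Blackfan anaemia was chosen, which need not be complete. Of these 17, 1 passed (Rps27, where 0.63% of all tested genes were called lower). Without overlap were 15 (11.5% of all tested genes), and the median was -0.43. As shares of the 17, these counts are near the shares given by the 3 called and 72 without overlap among all 81 members.

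Per kilobase of transcript, Rplp1 was the most abundant member, at 1458 ± 329 CPM per kilobase in Il3-/-5xFAD and 2061 ± 74.5 in 5xFAD (SD, n = 3 each). Rps14 followed with 883 ± 182 in Il3-/-5xFAD and 1307 ± 39.1 in 5xFAD, and Rps9 with 912 ± 156 in Il3-/-5xFAD and 1179 ± 22.5 in 5xFAD. In 5xFAD, Rplp1, Rps14 and Rps9 stood apart from each other by more than their SD, but in Il3-/-5xFAD Rps14 and Rps9 did not. Rpl13a, known in humans also for silencing inflammatory mRNAs, was at 795 ± 139 in Il3-/-5xFAD and 1055 ± 61.8 in 5xFAD. At the other end stood Rpl39l, Rps4y2, Rps27l and Rpl22l1, all paralogs, and Rps20, whose chosen transcript of 3706 bases is far longer than those of the other members.

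The paralog rows were compared with the genes they resemble. Rps27l encodes a close relative of Rps27 that is induced by p53. Both coding sequences of GRCm38 (GENCODE M21 models) have 255 bases. With introns they span chr3:90212725-90213615 (minus strand) for Rps27 and chr9:66946175-66949357 (plus strand) for Rps27l. The sequences are printed from start to stop codon with capitals at the 61 bases that differ.
Rps27: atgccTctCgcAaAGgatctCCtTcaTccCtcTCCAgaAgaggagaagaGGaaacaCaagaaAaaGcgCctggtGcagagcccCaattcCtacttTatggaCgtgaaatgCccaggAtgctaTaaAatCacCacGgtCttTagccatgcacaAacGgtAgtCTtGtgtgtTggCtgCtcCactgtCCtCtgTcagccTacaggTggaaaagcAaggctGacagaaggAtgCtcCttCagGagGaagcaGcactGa
Rps27l: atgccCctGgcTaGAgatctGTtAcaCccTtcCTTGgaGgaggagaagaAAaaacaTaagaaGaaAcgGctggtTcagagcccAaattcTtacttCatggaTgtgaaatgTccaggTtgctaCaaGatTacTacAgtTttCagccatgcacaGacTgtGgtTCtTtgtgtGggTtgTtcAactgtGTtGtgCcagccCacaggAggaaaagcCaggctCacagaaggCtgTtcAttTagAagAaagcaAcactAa

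The coding sequences of Rps27 and Rps27l are 76.1% identical, and the longest identical run is 11 bases. Rps27l was at 19.3, 24.8 and 23.9 CPM in Il3-/-5xFAD, against 30.2, 28.3 and 29.9 CPM in 5xFAD (-0.37 ± 0.13, limma adjusted p = 0.173), without overlap. It stood at 8.61% ± 0.778 of the level of Rps27 in Il3-/-5xFAD and at 7.68% ± 0.585 in 5xFAD (SD, n = 3 each). In this ratio the libraries of the groups overlapped. Rpl22l1, a paralog of Rpl22 that can take its place in the ribosome, was at 24.8, 30.5 and 29.3 CPM in Il3-/-5xFAD, against 33.2, 34.2 and 34.1 CPM in 5xFAD (-0.26 ± 0.12). Like Rps27l, it did not overlap in CPM. Relative to Rpl22 it stood at 14.2% ± 1.81 in Il3-/-5xFAD and 13.0% ± 0.883 in 5xFAD.

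The other paralog rows overlapped. Rpl7l1, a relative of Rpl7 whose protein in human cells works in the assembly of the large subunit, was at 92.4, 85.9 and 104.4 CPM in Il3-/-5xFAD, against 97.1, 98.6 and 106.0 CPM in 5xFAD (-0.097 ± 0.093), although Rpl7 had -0.35 ± 0.10 and did not overlap. Rps4y2 was at 20.4, 18.6 and 26.8 CPM in Il3-/-5xFAD, against 21.1, 21.0 and 24.0 CPM in 5xFAD (-0.018 ± 0.15), and its highest library was Il3-/-5xFAD replicate 3. RefSeq lists it as Rps4l on chromosome 6, which GENCODE M21 annotates as a transcribed processed pseudogene. Rpl39l, a paralog known from the testis, was near the filter at 1.38, 0.213 and 0.303 CPM in Il3-/-5xFAD, against 1.00, 2.97 and 1.44 CPM in 5xFAD, so that its log2 difference of -0.79 ± 0.36 rests on few reads (limma adjusted p = 0.305).

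**Figure D3:**
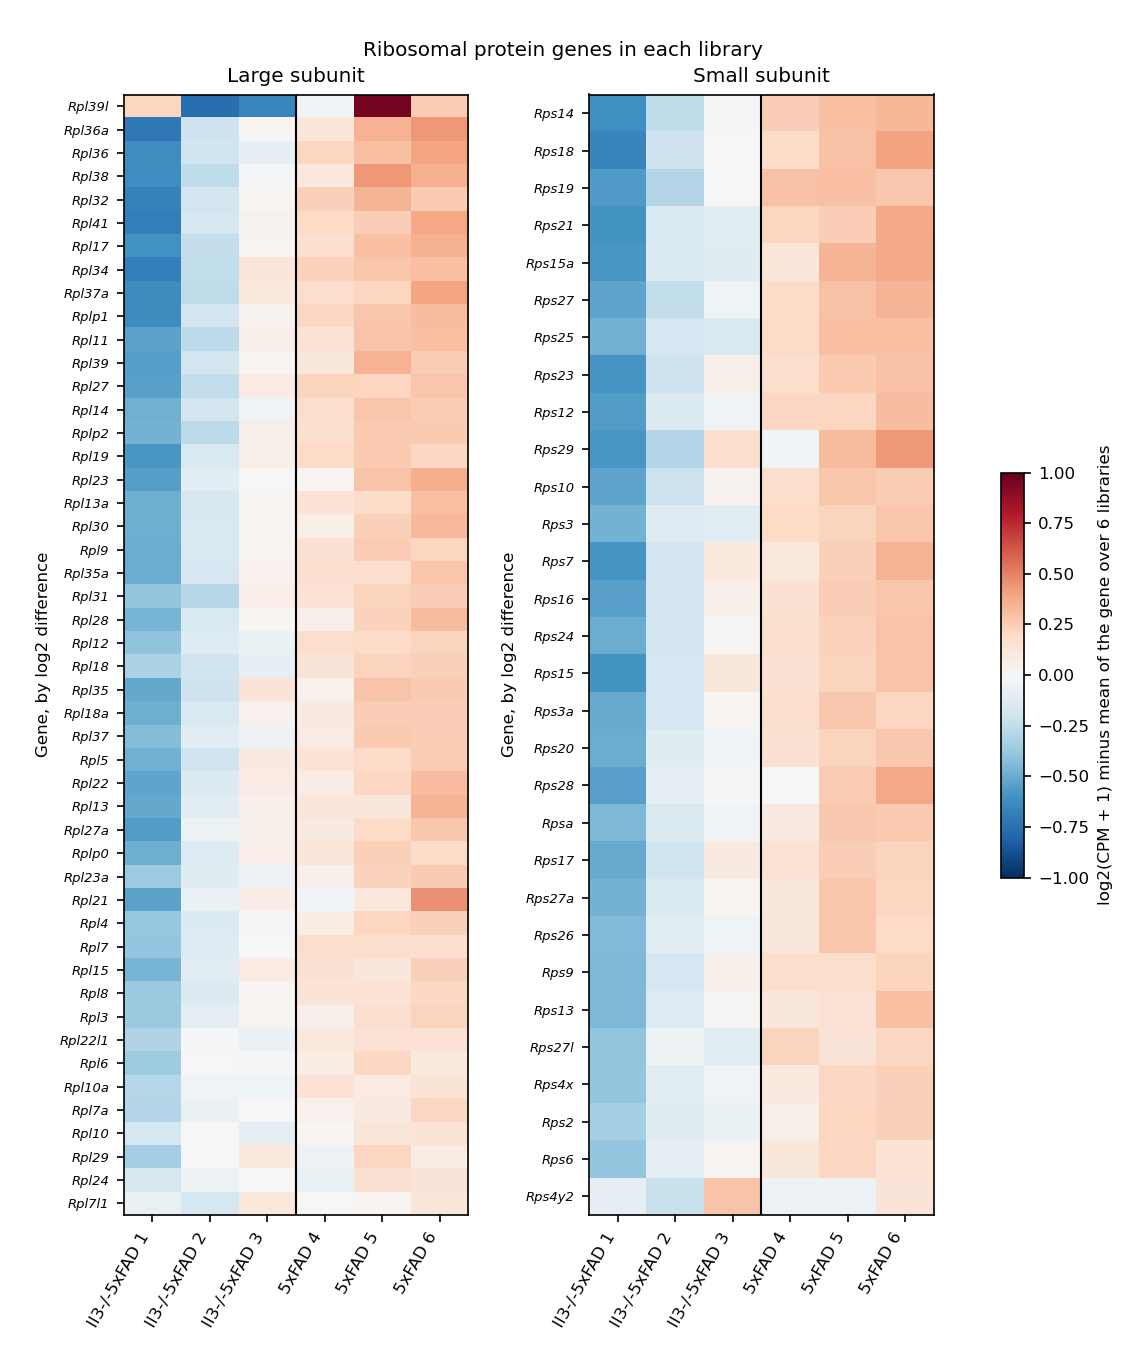
Log2(CPM + 1) of 48 large and 30 small subunit genes in each library minus the member's mean over the 6 libraries (colour scale; blue is below and red above the mean), with genes ordered by log2 difference from the most negative at the top and Il3-/-5xFAD libraries left of the black line. Il3-/-5xFAD replicate 1 is the lowest library in nearly all rows; Rpl39l, Rpl7l1 and Rps4y2 are lowest in Il3-/-5xFAD replicate 2.

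Members varied together from library to library. Il3-/-5xFAD replicate 1 was the lowest library for 78 of the 81 members and Il3-/-5xFAD replicate 2 for the remaining 3, while the highest library was 5xFAD replicate 6 for 54, 5xFAD replicate 5 for 23, 5xFAD replicate 4 for 3 and Il3-/-5xFAD replicate 3 for 1 (Rps4y2). The most frequent ordering of the 6 libraries was shared by 46 members. The members are therefore not independent readings of the genotype. Without Il3-/-5xFAD replicate 1 the medians were -0.27 in the large and -0.29 in the small subunit, and without Il3-/-5xFAD replicate 3 they were -0.53 and -0.55.

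Short transcripts had more negative differences than long ones, among the members and among all genes. Over the 81 members, Spearman's rho of transcript length with log2 difference was 0.46 (0.54 over the 48 large and 0.35 over the 33 small subunit genes), and over 11753 tested genes with a length it was 0.30; genes of the same libraries are not independent, and no p is given. The 27 shortest members, of 271 to 577 bases, had a median of -0.49 and held all 3 calls. The 27 of 583 to 860 bases had -0.40, and the 27 of 878 to 3706 bases -0.39. Of the 81, 76 were among the 2351 shortest tested genes (up to 1562 bases), where the other genes had a median of -0.14, with 73.6% of them negative, and the members in it had -0.41. When each library's trend with length was removed, the medians were -0.23 in the large and -0.20 in the small subunit, and 0 members were called by limma.

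The shortest product is that of Rpl41, a basic peptide whose whole coding sequence has 25 codons. With introns, the coding sequence spans chr10:128548387-128548960 (GRCm38, minus strand). It is printed with its start and stop codons in capitals.
Rpl41: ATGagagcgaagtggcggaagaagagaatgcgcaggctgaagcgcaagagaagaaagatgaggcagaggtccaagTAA

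Rpl41 was at 150, 215 and 250 CPM in Il3-/-5xFAD, against 279, 290 and 320 CPM in 5xFAD (-0.56 ± 0.15, limma adjusted p = 0.0874), without overlap. At the other extreme of coding length, Rpl4 was at 723, 854 and 931 CPM in Il3-/-5xFAD, against 989, 1089 and 1106 CPM in 5xFAD, also without overlap.

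**Figure D4:**
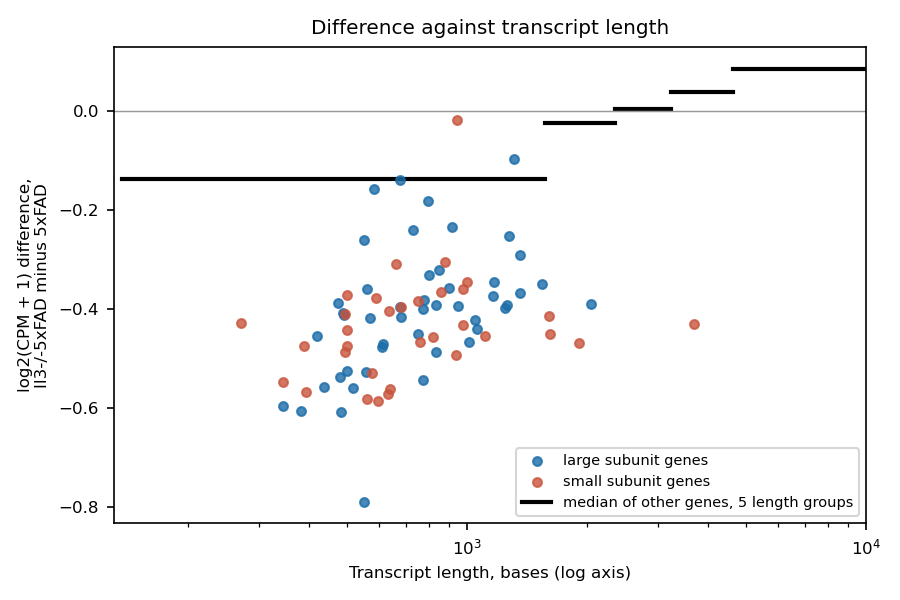
Log2(CPM + 1) difference, Il3-/-5xFAD minus 5xFAD, against transcript length in bases (log axis) for large (blue) and small (red) subunit genes, with black lines at the median of all other tested genes in 5 groups of equal size by length. The lines climb from -0.14 for the shortest to 0.086 for the longest group, and nearly all members lie below the line of their group.

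Genes near the ribosomal proteins in function were negative in most cases as well, with none called. Among ribosomal proteins outside the symbol rule, Fau, whose product is made as a fusion with a ubiquitin-like protein, was at 270, 354 and 392 CPM in Il3-/-5xFAD, against 433, 458 and 474 CPM in 5xFAD (-0.44 ± 0.12, limma adjusted p = 0.0901). The scaffold Gnb2l1 (Rack1) was at 455, 561 and 627 CPM in Il3-/-5xFAD, against 686, 734 and 745 CPM in 5xFAD, and neither gene overlapped. Of 19 tested mRNAs of other proteins and RNAs that begin with a TOP tract, 17 were negative and 2 positive (50.1% of all tested genes were negative), with a median of -0.29, and 11 did not overlap (11.5% of all tested genes). The most abundant of them, Eef1a1, which delivers aminoacyl-tRNA to the ribosome, was at 4311, 5482 and 5511 CPM in Il3-/-5xFAD, against 6177, 6719 and 6684 CPM in 5xFAD (-0.36 ± 0.14, limma adjusted p = 0.209).

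The machinery that makes ribosomes, and the ribosomes of mitochondria, had medians nearer to 0. Of 40 ribosome assembly factors 26 were negative and 14 positive, with a median of -0.039. Ncl, the abundant nucleolar protein nucleolin, was at 327, 381 and 393 CPM in Il3-/-5xFAD, against 336, 413 and 417 CPM in 5xFAD, and the groups overlapped. The 14 tested genes of RNA polymerase I and its factors had a median of 0.030, with 7 negative and 7 positive. The 18 tested genes of a list around mTORC1 had a median of 0.085, with 5 negative and 13 positive. That list mixes its components, regulators of either direction and ribosomal S6 kinases, so the median does not measure its activity. The 75 tested mitochondrial ribosomal proteins  had a median of -0.11, with 56 negative and 19 positive. None of these lists held a call, and no difference between lists was tested.

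**Figure D5:**
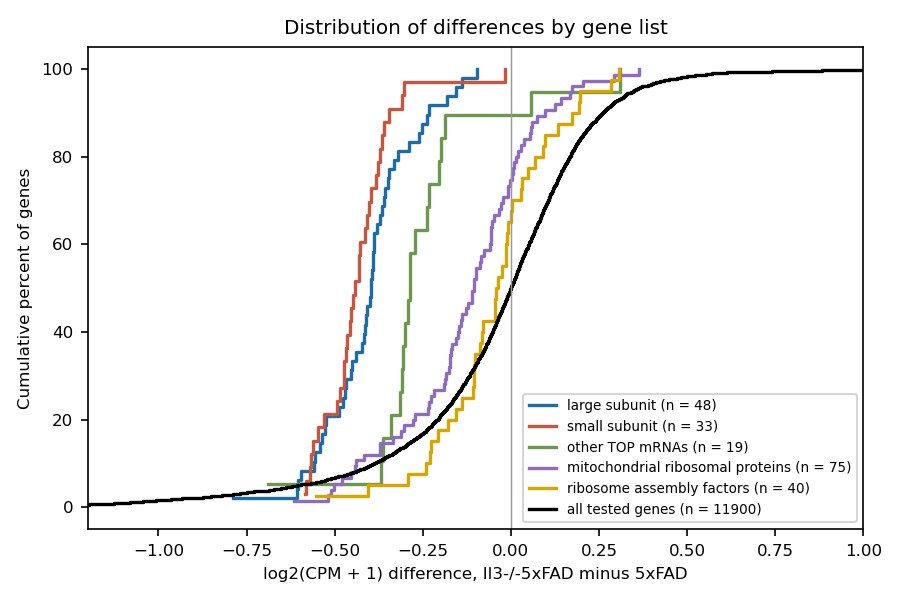
Cumulative percent of genes (vertical axis) by log2(CPM + 1) difference, Il3-/-5xFAD minus 5xFAD (horizontal axis; the tails of all tested genes run past it), for large and small subunit genes, other TOP mRNAs, mitochondrial ribosomal proteins, ribosome assembly factors and all tested genes. The curves of both subunits lie left of 0 throughout, with medians of -0.40 and -0.44, and that of all tested genes crosses 0 at its median.

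Summed markers of 6 of the 9 other cell types were lower in every Il3-/-5xFAD library than in any 5xFAD library. As single genes, 11.5% of all tested genes had this pattern, and no such share was counted for sums. Summed neutrophil markers were at 911 to 1469 CPM in Il3-/-5xFAD and 1918 to 3938 CPM in 5xFAD, and 5 of the 11 tested were called lower. For this and the next counts of calls, the share of all tested genes called lower was 0.63%. Summed monocyte markers were at 68.7 to 136 CPM in Il3-/-5xFAD and 148 to 212 CPM in 5xFAD (3 of 7 called lower), and lymphocyte markers at 70.8 to 82.4 CPM in Il3-/-5xFAD and 118 to 206 CPM in 5xFAD (3 of 12 called lower). Choroid plexus markers were at 60.8 to 126 CPM in Il3-/-5xFAD and 178 to 508 CPM in 5xFAD (2 of 3 called lower). None of the markers in the table for these 4 types was at 0 in all 6 libraries. Astrocyte markers (7.79 to 16.8 CPM in Il3-/-5xFAD and 21.6 to 44.6 CPM in 5xFAD) and oligodendrocyte markers (129 to 148 CPM in Il3-/-5xFAD and 157 to 178 CPM in 5xFAD) did not overlap either, with 0 called. The sums of neuron markers (2.52 to 3.85 CPM in Il3-/-5xFAD and 2.22 to 4.68 CPM in 5xFAD), endothelial markers (51.8 to 54.2 CPM in Il3-/-5xFAD and 53.3 to 73.4 CPM in 5xFAD) and erythroid markers (0.0336 to 1.42 CPM in Il3-/-5xFAD and 0.215 to 0.615 CPM in 5xFAD) overlapped. Single markers also ran the other way, with positive log2 differences for Csf3r of the neutrophil list (0.029), Cd79b of the lymphocyte list (0.060) and Pecam1 of the endothelial list (0.22), none of them called. Il3-/-5xFAD replicate 1, the library with the lowest ribosomal protein share, had the highest Il3-/-5xFAD sum for neutrophil (1469 CPM, against 1463 in replicate 3), monocyte and lymphocyte markers and the lowest for choroid plexus, astrocyte, neuron, endothelial and erythroid markers. The part of these cells in the differences of ribosomal protein genes was not tested.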

How the data were processed

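The deposited table held CPM for 20129 genes in 6 libraries, made by the authors from libraries of a directional kit with polyA selection, as the labels' protocols give it. STAR, HTSeq, edgeR and build mm9 are named, without versions or order, in the submitters' processing notes. The gene annotation, the counting mode and its use of strand were not given in the sources used here, so how reads shared between members and their processed pseudogenes were assigned is unknown. Every value was a whole multiple of the CPM of 1 read (100% within 0.01), and the reads recovered so served the count tests. Replicates of a group differed by more than sampling noise (chi-square per degree of freedom of at least 22.1).

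The 11900 genes that reached 1 CPM in 3 or more libraries were fitted in R 4.3.3 with limma 3.58.1 (lmFit, then eBayes with trend) on log2(CPM + 1). Tests were two-sided, differences are Il3-/-5xFAD minus 5xFAD, and p-values were adjusted over all tested genes after Benjamini and Hochberg. The log2 scale with this pseudocount understates the differences of low genes. Alternatives were pseudocounts of 0.25 and 5, other filters, scalings and variance settings, edgeR 4.0.16, DESeq2 1.42.0, a correction for length (lowess, span 0.3) and leaving out each library. The limma and edgeR steps were tested on simulated reads. The members, lists, tests and the rule for named genes were chosen with earlier results of these data known. Named were the called members, those with the extreme differences and levels in each subunit, a set for role, and the paralogs. Lengths came from a representative GENCODE M21 transcript per gene (GRCm38), promoter windows from RefSeq (GRCm38.p6). Shared 50-base stretches were taken over all GENCODE M21 transcripts of a gene. The percentages shared therefore also depend on how many transcripts are annotated for it. The files' build is mm9, so no coordinates come from them. Some members entered the fits and counts but are not reported here by name, nor drawn as rows in the figures.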

Additional observations from a re-analysis of the deposited data

How the results depend on the processing

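No paired analysis was possible because the groups share no replicate number. The count of members called lower, 3 with the settings reported, moved with nearly every setting, while 0 members were called higher in any of the 20 alternatives. For members lower, all genes lower and all genes higher, where the last 2 were 75 and 30 as reported, the counts were 0, 2 and 6 without a filter, 1, 44 and 24 with a filter at a mean of 5 CPM, 0, 41 and 24 with median-ratio rescaling, 1, 46 and 25 with quantile normalization, 6, 103 and 32 per 1000000 reads outside the members, 0, 5 and 5 without a variance trend, 8, 83 and 32 with robust estimation, and 68, 605 and 347 with array weights. They were 0, 35 and 25 with edgeR and TMM factors, 1, 42 and 27 with edgeR and library totals, 50, 411 and 194 with DESeq2, and 0, 38 and 19 with the length correction. Leaving out each library gave 0 to 65 members lower, 6 to 371 genes lower and 9 to 234 genes higher. Medians then ran from -0.53 to -0.27 in the large and from -0.55 to -0.29 in the small subunit, the difference in share of reads from -0.827 to -0.486 percentage points, and that of the large over small ratio from 0.0435 to 0.0521. The length correction moved the small subunit's median to -0.20. Over the 41 members with the fewest shared stretches, 1 was called, the difference in share was -0.329 points because fewer genes are summed, and the ratio differed by 0.0625.

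Differences that turned positive all belonged to members without a call. With the length correction these were Rpl10 (0.012), Rpl22l1 (0.010), Rpl24 (0.089), Rpl29 (0.10) and Rps4y2 (0.14), and for Rps4y2 also quantile normalization (0.014) and leaving out Il3-/-5xFAD replicate 1 (0.025), Il3-/-5xFAD replicate 2 (0.087) or 5xFAD replicate 6 (0.043), with values from -0.17 to 0.087 as each library was left out. The cause was not tested. Over 43 named members and 20 alternatives, 726 values kept their direction and side of the threshold, 93 gained a call, 31 lost it and 9 turned. The length correction also turned the order of the subunits' medians, to -0.23 in the large and -0.20 in the small subunit. Which of depth and the number of pools limits these results was not tested.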

Other observations

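Processed pseudogenes of the ribosomal proteins, which the symbol rule leaves out, were counted at low levels. Of 121 rows with a -ps symbol, 16 passed the filter, all 16 had a negative log2 difference (50.1% of all tested genes did) and 0 were called, with a median of -0.26. Their levels summed to 52.0, 61.2 and 69.1 CPM in Il3-/-5xFAD, against 76.4, 79.8 and 84.0 CPM in 5xFAD, so that the groups did not overlap. That was 0.284% to 0.303% of the reads of the members in every library. The most abundant, Rpl9-ps7, averaged 9.95 CPM in Il3-/-5xFAD and 13.9 CPM in 5xFAD.

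Rpl26, the large subunit gene that was left out, went the other way from every member, at 163, 206 and 243 CPM in Il3-/-5xFAD, against 71.1, 82.7 and 85.4 CPM in 5xFAD. The annotated gene Gm15772 differed in the direction opposite to Rpl26, at 0.638, 0.675 and 0.455 CPM in Il3-/-5xFAD, against 122, 129 and 119 CPM in 5xFAD. Added together they gave 163, 206 and 243 CPM in Il3-/-5xFAD, against 193, 212 and 204 CPM in 5xFAD, with overlapping groups. Sequence shared by Rpl26 and Gm15772 was not measured, the cause of their differences was not tested, and neither level is read alone here. Il3 and Rpl26 lie on chromosome 11. The 6 tested members on that chromosome had a median log2 difference of -0.45, and none was called. In all 6 every Il3-/-5xFAD library was below every 5xFAD library, a pattern that 11.5% of all tested genes had. Among all 81 tested members 72 had it, with a median of -0.41, so the members on chromosome 11 resembled the rest.

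The ratio of Rpl36al to Rpl36a, paralogs whose coding sequences are 87.9% identical, was 74.8%, 66.8% and 55.9% in Il3-/-5xFAD, against 55.1%, 48.2% and 41.8% in 5xFAD. No Il3-/-5xFAD library lay below the highest 5xFAD library, although the gap between the nearest libraries was smaller than the spread within either group. Of the paralog pairs compared, this was the only one whose groups did not overlap in such a ratio. Rpl36al alone was at 41.0, 52.3 and 51.2 CPM in Il3-/-5xFAD, against 54.5, 55.8 and 51.4 CPM in 5xFAD. These groups overlapped, and the gene was not called (-0.17 ± 0.11 on the log2 scale, SE). The higher ratio thus went with a lower level of Rpl36a and not with a higher level of Rpl36al. The difference in the ratio was not tested.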
